A study of Mus musculus with 9 samples.

Results

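The 8 genes described here encode steps of glucose synthesis and ammonia production in the kidney: Pcx, Pck1, Pck2, Fbp1, G6pc, Slc37a4, Glud1 and Slc38a3. The choice was made by name, for their place in the pathways, but with earlier results of these data known. They are 8 of 55359 genes in the table, and all 8 were among the 17179 genes with enough counts to be tested. Messenger RNA of whole mouse kidney was sequenced in 9 libraries, 3 per group. The NCD vehicle group ate a normal calorie diet with 11.32% of calories from fat, begun at 6 weeks of age. The HFD-STZ vehicle and HFD-STZ DHZ groups shared a diet rich in fat (49.0% of its calories) from the same age, and 2 intraperitoneal doses of the beta-cell toxin streptozotocin (STZ, 30 mg/kg) on days 60 and 63. Fasting glucose was measured on day 65, after which HFD-STZ DHZ animals received dehydrozingerone (DHZ), a ginger-derived phenolic compound, by mouth at 50 mg/kg for 2 weeks. The labels do not say whether each library came from its own animal. Y-linked transcripts were present in some libraries of every group and absent or nearly so in others, so no group is 1 animal sequenced 3 times, but the share of the spread that is technical is not known. For sex and strain, nothing was found in the labels. Batch dates differ for every library and run with the groups, and the effects of batch and treatment cannot be told apart.

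Beside the liver, the kidney is the other organ that releases newly made glucose into the blood, and within it the proximal tubule does so, from lactate, glycerol and the carbon of glutamine. Pyruvate carboxylase and phosphoenolpyruvate carboxykinase bypass the one-way pyruvate kinase step, fructose-1,6-bisphosphatase bypasses phosphofructokinase, and glucose-6-phosphatase with its transporter in the endoplasmic reticulum frees the glucose. Glutamine taken up by the same cells is broken down, with glutamate dehydrogenase among the enzymes, to ammonium, which is excreted with acid, and 2-oxoglutarate, which leaves the citric acid cycle through phosphoenolpyruvate carboxykinase. The pathway is known to be induced by acidosis, fasting and low insulin.

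Among the 8, Pck1 stood 5.45-fold above NCD vehicle in the HFD-STZ vehicle group (95% interval 3.05 to 9.76), which missed the threshold for a call, an adjusted p below 0.05. With dehydrozingerone it overlapped HFD-STZ vehicle and was 5.88-fold above NCD vehicle (3.28 to 10.6), which was called. Fbp1 and Glud1 rose with dehydrozingerone, 3.38-fold (2.11 to 5.41) and 2.75-fold (1.83 to 4.14) over HFD-STZ vehicle. The other 5 genes passed the test in none of the 3 comparisons.

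The depth behind these values differed between libraries. Total counts were 15.1 to 47.5 M (mega), of which mitochondrial transcripts took 39.2% to 60.4% and nuclear protein-coding genes 2.13 to 15.2 M. The latter were 4.59 to 8.49 M in NCD vehicle, 2.13 to 6.52 M in HFD-STZ vehicle and 7.63 to 15.2 M in HFD-STZ DHZ. The TMM factors that scale library size were 0.721 to 1.63, 0.327 to 1.22 and 1.23 to 1.37 in the same order. The lowest was that of HFD-STZ vehicle replicate 2. The part of these differences in the treatment results was not tested. HFD-STZ vehicle replicate 1 had the lowest total. Nuclear protein-coding counts were lowest in HFD-STZ vehicle replicate 2, where Pck2 had 25 counts, Slc38a3 49, Fbp1 55, Slc37a4 66 and Pcx 68, so its values for these genes are the least precise. Y-linked transcripts were present in NCD vehicle replicate 1, HFD-STZ vehicle replicates 2 and 3 and HFD-STZ DHZ replicate 3, so the groups differ in the number of such libraries. The 16 proximal tubule markers were expressed in every library, at a summed 3653 to 6787 counts per M of scaled library size (CPM) in NCD vehicle, 2552 to 6307 in HFD-STZ vehicle and 3639 to 4091 in HFD-STZ DHZ. In whole tissue, fewer cells of a type and less RNA per cell cannot be told apart.

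**Figure D1:**
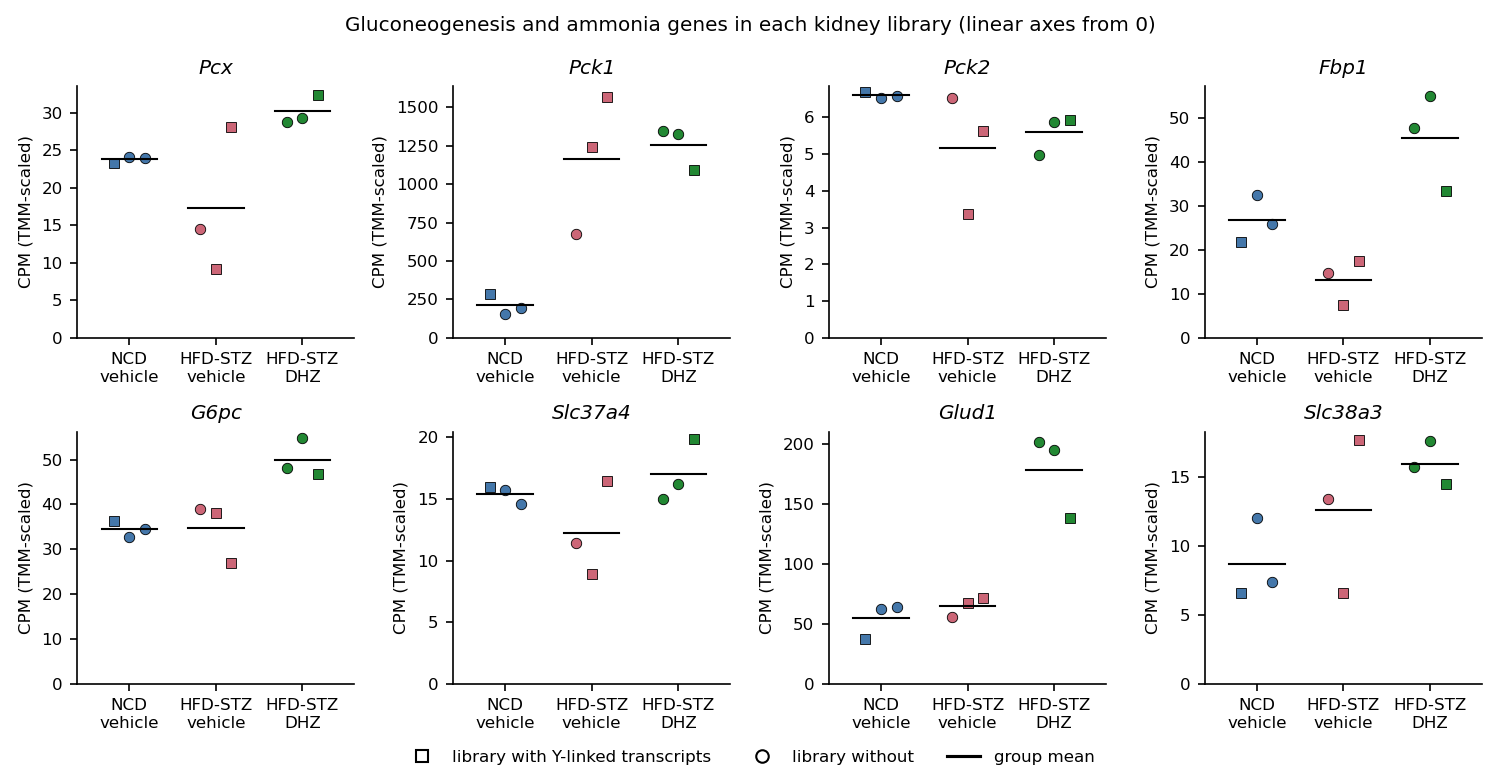
CPM of each of the 8 genes (linear vertical axes from 0) in the 9 libraries by group, with squares for libraries with Y-linked transcripts, circles for those without and a line at the group mean. Pck1 was at most 287 CPM in NCD vehicle and at least 673 in both HFD-STZ groups, whereas all 3 HFD-STZ DHZ libraries lay above the others for Fbp1, G6pc, Pcx and Glud1. For Pcx the margin was small (28.8 against 28.1 CPM). Of all genes, 20.9% had every HFD-STZ DHZ library above HFD-STZ vehicle and 22.4% above NCD vehicle. The share above both was not counted.

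Pck1 encodes the cytosolic phosphoenolpyruvate carboxykinase, the enzyme usually taken as the gate of gluconeogenesis. Its level was 287, 158 and 194 CPM in the NCD vehicle libraries, 673, 1242 and 1567 in HFD-STZ vehicle and 1342, 1324 and 1089 in HFD-STZ DHZ. Every library of both HFD-STZ groups lay above every NCD vehicle library, and those 2 groups overlapped. Their means were 1160.4 ± 453 and 1252 ± 141 CPM (SD, n = 3 each) against 213 ± 66.4 in NCD vehicle. HFD-STZ vehicle exceeded NCD vehicle by 2.45 on the log2 scale (SE 0.39, adjusted p = 0.052 by edgeR's quasi-likelihood F-test after Benjamini-Hochberg correction), the 10th smallest p of 17179 genes. Over the 18 alternative settings this estimate lay between 1.65 and 2.74 and its adjusted p between 8.4e-10 and 0.33, so the call depends on the setting. It passed with nuclear protein-coding genes only (adjusted p = 0.04), with DESeq2 (8.4e-10), with a stricter filter (0.047), with no filter, with a term for Y-linked libraries (2.26, 0.025) and without HFD-STZ vehicle replicate 1 (0.015).

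No difference in Pck1 was detectable with dehydrozingerone. HFD-STZ DHZ differed from HFD-STZ vehicle by 0.11 (SE 0.37, adjusted p = 0.86), with a 95% interval of the fold from 0.621 to 1.87. Without HFD-STZ vehicle replicate 1, the lowest of that group, the estimate was −0.18. Against NCD vehicle Pck1 rose by 2.56 in HFD-STZ DHZ (SE 0.39, adjusted p = 0.0083), and this call held in all 18 alternatives (highest adjusted p = 0.049). Among libraries with Y-linked transcripts Pck1 went from 287 CPM (NCD vehicle) to 1242 and 1567 (HFD-STZ vehicle) and 1089 (HFD-STZ DHZ). Among those without it went from 158 and 194 to 673 and to 1342 and 1324.

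The Pck1 difference was also present relative to other proximal tubule transcripts. As a share of the summed CPM of the 16 markers, Pck1 was 4.22%, 3.69% and 5.31% in NCD vehicle, 26.4%, 21.2% and 24.8% in HFD-STZ vehicle and 36.9%, 35.4% and 26.6% in HFD-STZ DHZ. On this scale the 3 groups did not overlap. The sum rests partly on Acsm2 and Slc7a13, which differ between libraries with and without Y-linked transcripts: Slc7a13 had 96 to 516 CPM in the former and 0.813 to 3.07 in the latter. Set against the geometric mean of the 16 markers, the ratio was 1.55, 1.19 and 1.79 in NCD vehicle, 8.52, 8.91 and 8.19 in HFD-STZ vehicle and 12.8, 12.2 and 8.13 in HFD-STZ DHZ. On that scale NCD vehicle still lay below both other groups, which overlapped. Of the 16 markers 0 were called by edgeR between HFD-STZ vehicle and NCD vehicle (median log2 fold change −0.31), with 2 by DESeq2, 0 by limma-voom and 5 at an unadjusted p below 0.05.

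**Figure D2:**
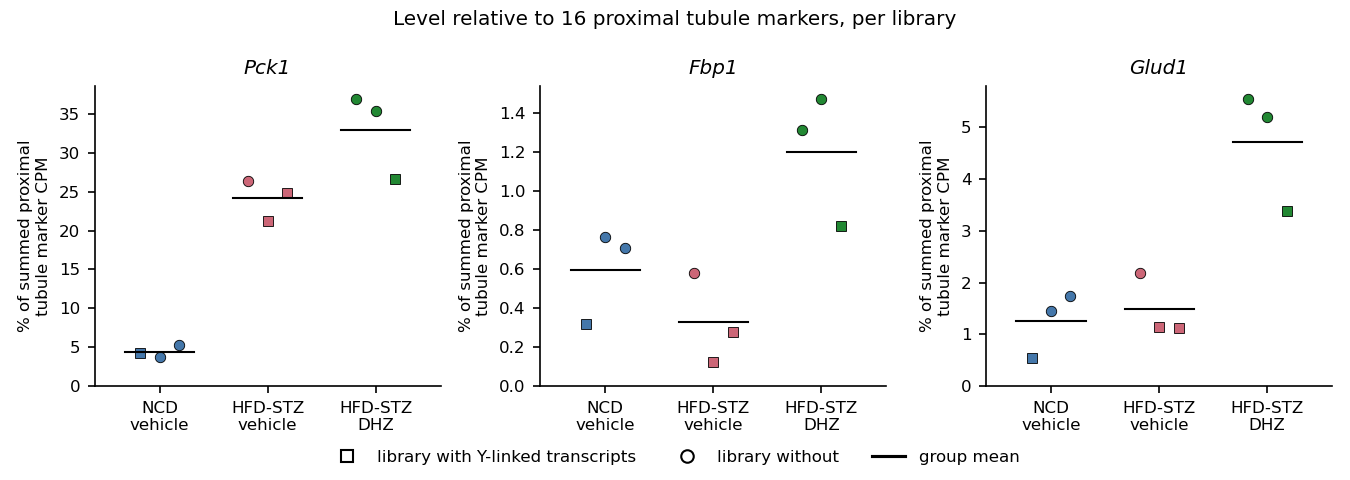
Pck1, Fbp1 and Glud1 as percent of the summed CPM of 16 proximal tubule markers (linear vertical axes from 0) in each library, with the symbols of the plot of CPM by library. Pck1 had means of 4.41%, 24.1% and 33% in the 3 groups, while Fbp1 and Glud1 were highest in the HFD-STZ DHZ libraries.

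Pck1 is also expressed by adipocytes and liver cells, so their markers were read beside it. The summed level of the adipocyte markers was 36.1 to 103 CPM in NCD vehicle, 27.6 to 39.1 in HFD-STZ vehicle and 36.2 to 103 in HFD-STZ DHZ. All 9 tested adipocyte genes had lower estimates in HFD-STZ vehicle than under the normal diet, with 0 called by edgeR or limma-voom, 1 by DESeq2 and 1 at an unadjusted p below 0.05. Between HFD-STZ DHZ and HFD-STZ vehicle 7 of the 9 had higher estimates and 1 was called, with a median of 2.65 that rests partly on genes at or near 0 counts. The called gene was Cidec, a lipid droplet protein, with 0.0542, 0 and 0.0401 CPM in HFD-STZ vehicle and 2.06, 0.602 and 0.436 in HFD-STZ DHZ (adjusted p = 0.047). Its call was lost in 8 of 18 alternatives, among them those without any 1 of the HFD-STZ vehicle libraries or without HFD-STZ DHZ replicate 1 or 2 (adjusted p = 0.075 to 0.14). Adipoq, which encodes adiponectin, had 0.0535, 0.166 and 1.84 CPM in NCD vehicle, 0.108, 0 and 0.0803 in HFD-STZ vehicle, then 4.41, 0 and 2.65 in HFD-STZ DHZ.

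The hepatocyte list summed to 65 to 115, 87.4 to 296 and 148 to 271 CPM in the order of the groups, with 0 of 7 tested genes called in any comparison by edgeR, DESeq2 or limma-voom and 2, 1 and 2 at an unadjusted p below 0.05. Ttr, transthyretin, had 12.9 ± 5.56 CPM in NCD vehicle, 52.5 ± 43.4 in HFD-STZ vehicle, then 22.2 ± 11.5 in HFD-STZ DHZ (2.02 for HFD-STZ vehicle against NCD vehicle, adjusted p = 0.58). Serpina1a, an antitrypsin, had 11 ± 9.64, 38.1 ± 19.7 and 26.4 ± 15.1 CPM (1.81, adjusted p = 0.66). Cyp2e1, chosen after its values were seen, differed between libraries with and without Y-linked transcripts. Those with them had 66.3 CPM (NCD vehicle replicate 1), 49 (HFD-STZ vehicle replicate 2), 112 (its replicate 3) and 195 (HFD-STZ DHZ replicate 3). Those without had 4.17 to 22.5 CPM. The highest sums of the list, 296 and 271 CPM, were in the libraries where Cyp2e1 had 112 and 195. Apob, of lipoproteins, had 27.2 ± 8.85, 31.5 ± 17.2 and 59 ± 29.9 CPM, and Fgb, a fibrinogen chain, 0.301 ± 0.312, 0.244 ± 0.313 and 2.24 ± 2.37. Albumin (Alb) was at 0.944 to 4 CPM, Cps1 at no more than 0.0154 and Tat at 0 in all 9 libraries. The part of adipocyte or liver transcripts in the Pck1 result was not tested.

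The 250 bases before the Pck1 start in RefSeq (GRCm38.p6, chr2:173152823-173153072, plus strand) are shown because this promoter is the textbook case of hormonal control of gluconeogenesis. Capitals mark matches to 5 motifs searched on both strands, which do not show that a factor binds there.
Pck1: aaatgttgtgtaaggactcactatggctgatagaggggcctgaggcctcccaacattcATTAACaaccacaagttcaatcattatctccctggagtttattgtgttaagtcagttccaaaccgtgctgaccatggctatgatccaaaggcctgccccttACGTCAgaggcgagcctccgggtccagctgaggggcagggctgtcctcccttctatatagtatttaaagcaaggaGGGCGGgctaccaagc
The cAMP response element core ACGTCA lies 91 to 86 bases before the start and is held by 6.47% of 32851 RefSeq windows of this length. A core site of HNF1, a transcription factor of proximal tubule and liver, GTTAAT (6.43% of windows), lies on the reverse strand at 192 to 187. The GC box GGGCGG, found in 32.7% of windows, lies at 16 to 11. The other motifs searched were the forkhead core TGTTTTG (5.56%) of the insulin response and the amino acid response element TGATGNAA (3.45%).

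Pck2 encodes the mitochondrial form of the same enzyme. It had 6.68, 6.52 and 6.57 CPM in NCD vehicle, 6.51, 3.37 and 5.62 in HFD-STZ vehicle and 4.97, 5.88 and 5.93 in HFD-STZ DHZ. The NCD vehicle libraries lay close together and above all others, though HFD-STZ vehicle replicate 1 was lower by a slight margin. No comparison passed the test: the log2 fold change was −0.32 for HFD-STZ vehicle against NCD vehicle (SE 0.24, adjusted p = 0.77), 0.09 for HFD-STZ DHZ over HFD-STZ vehicle (SE 0.24, adjusted p = 0.82) and −0.24 against NCD vehicle (SE 0.24, adjusted p = 0.52). The estimate for the treatment was −0.11 without HFD-STZ vehicle replicate 2. The ratio of Pck1 to Pck2 counts was 42.9, 24.2 and 29.5 in NCD vehicle, 103, 368 and 279 in HFD-STZ vehicle and 270.2, 225 and 184 in HFD-STZ DHZ.

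Pcx encodes pyruvate carboxylase, which makes oxaloacetate from pyruvate in mitochondria. Its level was 23.3, 24.1 and 24 CPM in NCD vehicle, 14.5, 9.17 and 28.1 in HFD-STZ vehicle and 28.8, 29.3 and 32.4 in HFD-STZ DHZ. The HFD-STZ vehicle group was spread on both sides of the NCD vehicle values, and the HFD-STZ DHZ libraries lay above all others, replicate 1 by a small margin. HFD-STZ DHZ exceeded HFD-STZ vehicle by 0.79 (SE 0.31, 95% interval 0.1 to 1.47, adjusted p = 0.09), which did not pass. It did pass without HFD-STZ vehicle replicate 3, the highest of its group (1.34, adjusted p = 0.0087), and with no filter. Against NCD vehicle the differences were −0.45 for HFD-STZ vehicle (SE 0.31, adjusted p = 0.76) and 0.34 for HFD-STZ DHZ (SE 0.31, adjusted p = 0.48).

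Fbp1 encodes the fructose-1,6-bisphosphatase of liver and kidney, which turns fructose-1,6-bisphosphate into fructose-6-phosphate. It had 21.8, 32.6 and 25.9 CPM in NCD vehicle, 14.8, 7.42 and 17.6 in HFD-STZ vehicle and 47.8, 54.9 and 33.5 in HFD-STZ DHZ. The 3 groups did not overlap, with HFD-STZ vehicle lowest and HFD-STZ DHZ highest. Fbp1 rose from 13.3 ± 5.27 to 45.4 ± 10.9 CPM with dehydrozingerone (SD, n = 3 each), or 1.76 on the log2 scale (SE 0.31, adjusted p = 0.0056). It was called in all 18 alternatives (highest adjusted p = 0.031). Against NCD vehicle (26.7 ± 5.48 CPM) the difference was −0.99 in HFD-STZ vehicle (SE 0.31, unadjusted p = 0.0071, adjusted p = 0.45) and 0.76 in HFD-STZ DHZ (SE 0.30, adjusted p = 0.11), and neither passed. Libraries with Y-linked transcripts had 12.5 CPM on average in HFD-STZ vehicle, then 33.5 in HFD-STZ DHZ, those without 14.8 and 51.4.

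The window before the Fbp1 start (GRCm38.p6, chr13:62888283-62888532, minus strand) and that of Glud1 (chr14:34310477-34310726, plus strand) are shown because both genes rose with dehydrozingerone.
Fbp1: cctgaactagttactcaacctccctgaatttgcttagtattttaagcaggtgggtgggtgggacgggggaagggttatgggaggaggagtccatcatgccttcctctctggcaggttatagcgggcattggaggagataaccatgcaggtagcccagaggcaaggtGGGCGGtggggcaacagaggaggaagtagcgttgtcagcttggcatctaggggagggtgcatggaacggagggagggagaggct
Glud1: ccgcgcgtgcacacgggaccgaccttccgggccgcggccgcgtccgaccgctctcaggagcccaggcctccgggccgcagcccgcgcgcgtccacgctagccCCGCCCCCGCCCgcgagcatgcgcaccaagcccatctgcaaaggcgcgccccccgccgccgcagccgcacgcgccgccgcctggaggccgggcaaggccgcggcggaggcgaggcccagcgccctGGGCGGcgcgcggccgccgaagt
The capitals mark GC boxes, 1 in Fbp1 at 84 to 79 bases before the start and 3 in Glud1, at 148 to 143 and 142 to 137 on the reverse strand and at 23 to 18 on the strand shown. Their base composition differed: G and C made up 56.4% of the Fbp1 window, with 5 CpG pairs, and 82.0% of the Glud1 window, with 46, against a median of 52.4% over all windows. Neither window held any of the other 4 motifs, which says only that those letters are not in these 250 bases.

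G6pc encodes the catalytic subunit of glucose-6-phosphatase, the last step before glucose leaves the cell. Its level was 36.3, 32.8 and 34.6 CPM in NCD vehicle, 38.9, 38.2 and 27 in HFD-STZ vehicle and 48.2, 54.8 and 46.8 in HFD-STZ DHZ. All 3 HFD-STZ DHZ libraries lay above the other 6, which overlapped. HFD-STZ vehicle did not differ detectably from NCD vehicle (0.00, SE 0.21, 95% interval −0.44 to 0.45, adjusted p = 1). HFD-STZ DHZ exceeded HFD-STZ vehicle by 0.53 (SE 0.21, 95% interval 0.08 to 0.98, adjusted p = 0.083) and NCD vehicle by 0.53 (SE 0.21, adjusted p = 0.099). Neither passed, at unadjusted p = 0.024 each.

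The G6pc window (GRCm38.p6, chr11:101367466-101367715, plus strand) is shown because its enzyme acts in the same pathway as that of Pck1.
G6pc: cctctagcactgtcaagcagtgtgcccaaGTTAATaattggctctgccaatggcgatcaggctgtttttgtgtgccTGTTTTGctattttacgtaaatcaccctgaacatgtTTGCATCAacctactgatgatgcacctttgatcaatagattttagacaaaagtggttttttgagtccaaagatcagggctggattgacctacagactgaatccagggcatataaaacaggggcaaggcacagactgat
It held the HNF1 core site at 221 to 216, the forkhead core TGTTTTG at 174 to 168 and, on the reverse strand, the amino acid response element at 138 to 131. It held neither ACGTCA nor a GC box, which says only that those letters are not in these 250 bases. G and C made up 43.2% of the window. Whether any of these motifs bears on the levels was not tested. Of the 8 genes, 7 had an entry in the RefSeq promoter table, in 10 windows, and Slc38a3 is named only.

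Slc37a4 encodes the transporter that brings glucose-6-phosphate to the phosphatase in the endoplasmic reticulum. It had 16, 15.7 and 14.6 CPM in NCD vehicle, 11.4, 8.9 and 16.5 in HFD-STZ vehicle and 15, 16.2 and 19.9 in HFD-STZ DHZ, and all groups overlapped. The differences were −0.32 (HFD-STZ vehicle against NCD vehicle, SE 0.23, adjusted p = 0.77), 0.46 (HFD-STZ DHZ against HFD-STZ vehicle, SE 0.23, adjusted p = 0.17) and 0.14 (HFD-STZ DHZ against NCD vehicle, SE 0.23, adjusted p = 0.71). The treatment difference passed only without HFD-STZ vehicle replicate 3 (0.74, adjusted p = 0.041) among the 18 alternatives.

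Glud1 encodes glutamate dehydrogenase, the mitochondrial enzyme that releases ammonium from glutamate. Its level was 37.4, 62.6 and 63.8 CPM in NCD vehicle, 55.9, 67.3 and 71.3 in HFD-STZ vehicle and 202, 195 and 138 in HFD-STZ DHZ. The first 2 groups overlapped, and the lowest HFD-STZ DHZ library was well above the highest of the other 6. Glud1 rose from 64.8 ± 8 to 178 ± 35 CPM with dehydrozingerone (SD, n = 3 each), or 1.46 on the log2 scale (SE 0.27, adjusted p = 0.0063), called in all 18 alternatives (highest adjusted p = 0.035). Against NCD vehicle (54.6 ± 14.9 CPM) it rose 3.26-fold (2.16 to 4.92; log2 1.71, SE 0.27, adjusted p = 0.0088). That call was lost only with library-size scaling (adjusted p = 0.25). HFD-STZ vehicle against NCD vehicle gave 0.25 (SE 0.27, 95% interval −0.33 to 0.83, adjusted p = 0.83).

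As a share of the summed proximal tubule markers, Glud1 was 0.551%, 1.46% and 1.75% in NCD vehicle, 2.19%, 1.15% and 1.13% in HFD-STZ vehicle and 5.55%, 5.21% and 3.38% in HFD-STZ DHZ, so that the treated group again lay above the rest. Fbp1 on this scale was 0.321%, 0.762% and 0.708%, then 0.58%, 0.126% and 0.279%, then 1.31%, 1.47% and 0.818%. Its HFD-STZ DHZ libraries again lay above the rest, and the other groups overlapped. Set against the geometric mean of the 16 markers, the lowest HFD-STZ DHZ ratio of Fbp1 was 0.25, barely above the 0.246 of NCD vehicle replicate 2. That of Glud1 was 1.03, against at most 0.708 in the other groups. Of the 16 markers themselves, 4 rose with dehydrozingerone (Gatm, Keg1, Pdzk1 and Slc5a2) and 0 fell. Of all genes 22.1% were called, 10% higher and 12% lower. The count is near the share called in either direction, though all 4 calls were higher. The median log2 fold change of the 16 was −0.03. Without HFD-STZ DHZ replicate 1 or 2 there were 0 higher calls, and without HFD-STZ vehicle replicate 1 or 2 there were 2.

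Slc38a3 encodes the glutamine transporter SNAT3 of the basolateral membrane, by which proximal tubule cells take glutamine from blood. It had 6.58, 12 and 7.39 CPM in NCD vehicle, 13.4, 6.61 and 17.7 in HFD-STZ vehicle and 15.7, 17.6 and 14.5 in HFD-STZ DHZ. The HFD-STZ vehicle libraries spanned nearly the whole range, and HFD-STZ DHZ lay above NCD vehicle. HFD-STZ DHZ exceeded NCD vehicle by 0.88 (SE 0.32, 95% interval 0.18 to 1.57, adjusted p = 0.083) and HFD-STZ vehicle by 0.32 (SE 0.32, adjusted p = 0.49). HFD-STZ vehicle exceeded NCD vehicle by 0.56 (SE 0.32, adjusted p = 0.73). None passed, but the first did without HFD-STZ vehicle replicate 2, with only the 2 groups compared and with no filter.

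**Figure D3:**
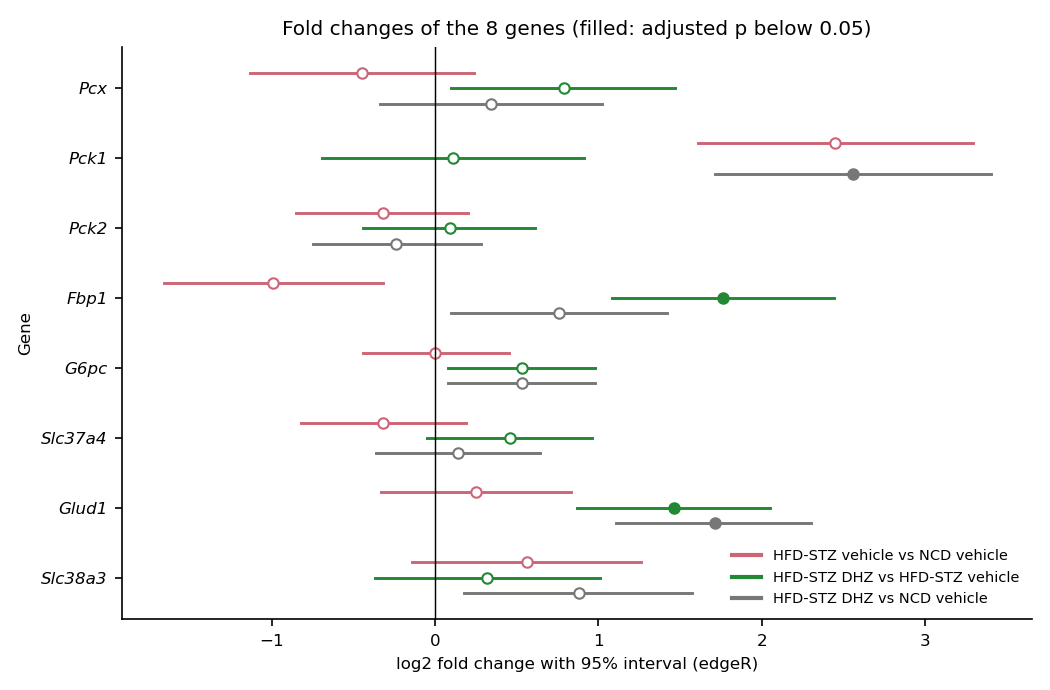
Log2 fold change of each of the 8 genes (horizontal axis) with its 95% interval from edgeR, in 3 colours for the 3 comparisons and filled where the adjusted p was below 0.05. Filled points are those of Fbp1 (1.76) and Glud1 (1.46) for HFD-STZ DHZ over HFD-STZ vehicle, and of Pck1 (2.56) and Glud1 (1.71) for HFD-STZ DHZ against NCD vehicle.

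Counted over the 8 genes, HFD-STZ vehicle against NCD vehicle gave 0 calls, where 0.0524% of all tested genes were called (0.0233% higher and 0.0291% lower). At an unadjusted p below 0.05 there were 2, Pck1 and Fbp1, against 7.43% of all genes. The groups did not overlap for 3 of 8, with Pck1 higher and Pck2 and Fbp1 lower, against 11.4% of all genes (4.83% higher, 6.56% lower). The median log2 fold change of the 8 was −0.16 and that of all genes 0. With DESeq2, 1 of the 8 was called and with limma-voom 0.

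For HFD-STZ DHZ over HFD-STZ vehicle 2 of 8 were called, both higher, that is 25.0% against a background of 22.1% (10% higher, 12% lower). The share called is near that of all genes, so the number of calls is no result about these 8. The groups did not overlap for 4 of 8, all higher (Pcx, Fbp1, G6pc and Glud1), against 39.8% of all genes (20.9% higher, 19.0% lower). An unadjusted p below 0.05 was reached by 4 of 8 against 37.1%. All 8 estimates were above 0, with a median of 0.49 against 0.04 for all genes and 0.13 for protein-coding genes. Of all genes called in this comparison 45.5% were higher, but 93.7% with library-size scaling, which moved the median of all genes to 0.81 and that of the 8 to 1.24.

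For HFD-STZ DHZ against NCD vehicle 2 of 8 were called, both higher, against 13.7% of all genes (6.31% higher, 7.38% lower). The groups did not overlap for 7 of 8, of which Pck2 was lower and the others higher, against 44.1% of all genes (22.4% higher, 21.7% lower). An unadjusted p below 0.05 was reached by 5 of 8 against 31.7%, and the median log2 fold change was 0.65 against 0.01. Without HFD-STZ vehicle replicate 2, which shares the fit, 4 of 8 were called (Fbp1 and Slc38a3 in addition), as they were with no filter.

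Compared per length of exon, Pck1 was the most abundant of the 8 in every group. In NCD vehicle it had 62.1 ± 19.4 CPM per kilobase (SD, n = 3), followed by Fbp1 (15.7 ± 3.22), G6pc (14.3 ± 0.731) and Glud1 (13.0 ± 3.55), whose values lay within their spread of each other. Slc37a4 (5.41 ± 0.25) and Pcx (5.01 ± 0.0984) came next, then Slc38a3 (1.64 ± 0.56) and Pck2 (0.844 ± 0.0106). In HFD-STZ vehicle Pck1 reached 338 ± 132 and Fbp1, at 7.8 ± 3.09, stood below Glud1 (15.4 ± 1.9) and G6pc (14.4 ± 2.76), which lay within their spread of each other. In HFD-STZ DHZ the order was Pck1 (365 ± 41.2), Glud1 (42.3 ± 8.31), Fbp1 (26.7 ± 6.42) and G6pc (20.7 ± 1.79). Exon lengths come from an annotation of the older build, which gives Pck2 7806 bases over all its transcripts and so may set its level too low. Pck1 alone made up 45.8% to 66% of the summed CPM of the 8 in NCD vehicle, 81.2% to 89.8% in HFD-STZ vehicle and 78% to 78.9% in HFD-STZ DHZ.

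Across the 9 libraries Pck1 spanned 3.31 on the log2 scale, Fbp1 2.88 and Glud1 2.43, against 1.81 for Pcx and 0.97 to 1.42 for the remaining 4. The likeness of 2 patterns was taken as the mean absolute difference of log2 CPM over the 9 libraries, each gene centred on its own mean. Among the 8 the closest pair was Pcx and Slc37a4 (0.2) and the farthest Pck1 and Pck2 (1.29), while Fbp1 and Glud1 were 0.52 apart. Among 10003 other genes, those nearest to Pck1 were Dzip1 (0.39) and Ces2e (0.44), both farther than the nearest gene of any other member. Nearest to Fbp1 were Podxl and Cct4 (0.16 each) and to Glud1 Mtx2 and Ssr3 (0.11 each). Nearest to G6pc were Faim (0.08) and Ercc6l2 (0.09), to Pcx Cdk4 and Zdhhc9, to Slc37a4 Flcn and Txlna and to Pck2 Plod1 and Ankrd54 (0.08 each), and to Slc38a3 Tubb2a (0.18) and Kpna6 (0.19).

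The enzymes that gluconeogenesis shares with glycolysis, with those of the malate and aspartate shuttle, formed a list of 16 genes, all tested. Between HFD-STZ DHZ and HFD-STZ vehicle 7 rose, 1 fell and 8 did not pass, where 22.1% of all genes were called, with a median log2 fold change of 0.69 against 0.04 for all genes. Mdh1, the cytosolic malate dehydrogenase that supplies oxaloacetate to Pck1, rose from 50.9 ± 11.1 to 204 ± 34.4 CPM (2.00, SE 0.26, adjusted p = 0.0031). Tpi1, triose phosphate isomerase (1.44, SE 0.30, adjusted p = 0.0087), and Pgk1, phosphoglycerate kinase (1.42, SE 0.28, adjusted p = 0.0069), rose as well, and these 3 calls held in all 18 alternatives. Ldhb, a lactate dehydrogenase subunit, rose by 1.18 (adjusted p = 0.014). The gene that fell was Eno3, the muscle enolase (−1.15). Without HFD-STZ DHZ replicate 1 or 2 the list had 3 higher calls and 0 lower, and Ldhb was not among them (adjusted p = 0.058 and 0.052). The lower call was also lost without HFD-STZ vehicle replicate 1.

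Against NCD vehicle, 2 of these 16 rose in HFD-STZ DHZ and 1 fell (median 0.48). Mdh1 rose from 64.6 ± 11.1 CPM (1.66, SE 0.26, adjusted p = 0.0083) and lost its call only with library-size scaling (0.25). The calls of Pgk1 (1.01, adjusted p = 0.031) and Eno3 (−1.26, adjusted p = 0.019) were lost without NCD vehicle replicate 1 or 2 and without HFD-STZ DHZ replicate 1 or 2, and that of Pgk1 also without NCD vehicle replicate 3 (adjusted p = 0.055 to 0.12 for Pgk1). Between HFD-STZ vehicle and NCD vehicle 0 of the 16 passed with edgeR, DESeq2 or limma-voom (median −0.15), with 1 at an unadjusted p below 0.05.

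In the list of 15 tested genes for substrate entry (lactate, pyruvate, glycerol, alanine and proline) 1 rose with dehydrozingerone and 0 fell (median 0.39), fewer than the 22.1% of all genes called. It was Gpt2, the mitochondrial alanine aminotransferase (0.68, SE 0.21, adjusted p = 0.036). Its call was lost in 10 of 18 alternatives, among them those without NCD vehicle replicate 2 or 3, HFD-STZ vehicle replicate 1 or any 1 of the HFD-STZ DHZ libraries (adjusted p = 0.05 to 0.11). The list had 3 higher calls when NCD vehicle replicate 1 was left out, and 2 and 4 when HFD-STZ vehicle replicates 2 and 3 were. Of the isoenzymes, Fbp2, the muscle bisphosphatase, had −0.11 (adjusted p = 0.84) and G6pc3, the widely expressed phosphatase, −0.73 (adjusted p = 0.067), while G6pc2 had too few counts to be tested. Of 15 one-way glycolytic genes 1 rose and 0 fell with dehydrozingerone (median 0.21), again fewer than that share. It was Pfkp, a phosphofructokinase (0.74, SE 0.21, adjusted p = 0.029), whose call was lost in 7 of 18 alternatives, among them those without HFD-STZ vehicle replicate 2 or 3 or HFD-STZ DHZ replicate 1 or 2 (adjusted p = 0.056 to 0.12). Between HFD-STZ vehicle and NCD vehicle these 3 lists had 0 calls with edgeR, 1 lower (substrate entry) and 1 higher (glycolytic) with DESeq2, and 4, 0 and 1 genes at an unadjusted p below 0.05.

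The list of glutamine and ammonia enzymes held 9 tested genes, Glud1 among them. With dehydrozingerone 2 rose and 1 fell (median 0.46), against 22.1% of all genes called. Beside Glud1, the gene that rose was Asns, asparagine synthetase (0.615 ± 0.416 to 3.5 ± 2.45 CPM; 2.35, SE 0.58, adjusted p = 0.017). Ogdh, which oxidises 2-oxoglutarate in the citric acid cycle, fell from 108 ± 16.8 to 56.4 ± 2.6 CPM (−0.94, SE 0.22, adjusted p = 0.013). Of these calls only that of Glud1 held in all 18 alternatives. Asns lost its call in 3 of 18 alternatives, among them that without HFD-STZ DHZ replicate 2 (1.63, adjusted p = 0.088). Ogdh also lost its call in 3, among them those without HFD-STZ DHZ replicate 1 (0.071) or 2 (0.055). The third left out no single library, and there the Ogdh estimate was −0.16 (adjusted p = 0.86). Between HFD-STZ vehicle and NCD vehicle 0 of the 9 passed with edgeR and 1 with DESeq2 (median 0.13), and Glul, glutamine synthetase, was the 1 gene at an unadjusted p below 0.05 (−1.53, adjusted p = 0.30).

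Of 11 tested transporters of glutamine and glutamate, Slc38a3 included, 4 rose with dehydrozingerone and 0 fell (median 0.32), against 10% of all genes called higher and 12% lower. Slc6a19, the apical carrier of neutral amino acids, rose from 4.89 ± 1.15 to 17.6 ± 3.48 CPM (1.86, adjusted p = 0.0031). Slc7a7, the basolateral light chain y+LAT1, rose from 6.5 ± 1.49 to 14.3 ± 1.44 CPM (1.15, adjusted p = 0.0072), and both calls held in all 18 alternatives. Slc1a4, a carrier of small neutral amino acids, rose by 1.48 (adjusted p = 0.011, but 0.052 without HFD-STZ DHZ replicate 2). Slc7a8, a basolateral exchanger, rose by 0.71 (adjusted p = 0.047), a call lost in 14 of 18 alternatives and in 7 of the 9 that left out 1 library, NCD vehicle replicates 1 and 2 being the exceptions. Slc6a19 fell between NCD vehicle (16.1 ± 1.76 CPM) and HFD-STZ vehicle (−1.73, adjusted p = 0.035), the only call of a listed pathway gene in that comparison. That call was lost in 10 of 18 alternatives, among them those without any 1 of the NCD vehicle libraries, HFD-STZ vehicle replicate 3 or HFD-STZ DHZ replicate 2 or 3 (adjusted p = 0.056 to 0.18).

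Of 16 acid-base and ammonium transport genes 0 rose and 3 fell with dehydrozingerone (median −0.16). Of all genes 22.1% were called and 12% were lower, so the number of calls is no result about this list. Rhbg, an ammonium transporter of the collecting duct, fell from 2.46 ± 0.844 to 0.974 ± 0.0922 CPM (−1.33, SE 0.33, adjusted p = 0.016). The 8 markers of distal tubule and collecting duct summed to 837 to 901 CPM in HFD-STZ vehicle and 427 to 825 in HFD-STZ DHZ, with 6 of 8 estimates lower. Of these Aqp3, a water channel of the collecting duct, passed (−0.62, adjusted p = 0.046), but it had 0.09 with library-size scaling and lost its call without any 1 of 7 libraries, the exceptions being NCD vehicle replicate 1 and HFD-STZ vehicle replicate 2 (adjusted p = 0.058 to 0.12). Their part in the Rhbg result was not tested. Slc4a4, the bicarbonate carrier of the proximal basolateral membrane, fell from 336 ± 58.5 to 166 ± 19.7 CPM (−1.02, SE 0.33, adjusted p = 0.043). Its call was lost in 8 of 18 alternatives, and that of Rhbg in 4. Among alternatives other than leaving out 1 library, the estimates were as weak as −0.15 for Slc4a4 (adjusted p = 0.86) and −0.43 for Rhbg (adjusted p = 0.69). Slc4a2, an anion exchanger, fell by 0.6 on the log2 scale (adjusted p = 0.033), though with library-size scaling it had 0.14. The list had 0 lower calls without HFD-STZ DHZ replicate 1, without its replicate 2 or without HFD-STZ vehicle replicate 3, and 1 without NCD vehicle replicate 2 or HFD-STZ DHZ replicate 3. Between HFD-STZ vehicle and NCD vehicle 0 passed with edgeR and 1 with DESeq2 (median 0.05), with 2 at an unadjusted p below 0.05.

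Among 25 regulators of gluconeogenesis, 1 rose and 3 fell with dehydrozingerone (median −0.21). Of all genes 22.1% were called, 10% higher and 12% lower, so the number of calls is no result about this list. Sirt1, a deacetylase of metabolic factors, rose from 4.85 ± 0.362 to 8.88 ± 0.376 CPM (0.88, SE 0.20, adjusted p = 0.011), a call that held whichever library was left out (highest adjusted p = 0.046) but not with library-size scaling (0.081). Sik2, a kinase that restrains the CREB coactivators, fell by 1.23 on the log2 scale (adjusted p = 0.02), Crtc3, one of these coactivators, by 0.9 (adjusted p = 0.014) and Ppara, the fasting-activated nuclear receptor, by 0.87 (adjusted p = 0.024). Without HFD-STZ DHZ replicate 1 or 2 there were 0 lower calls, and that of Ppara was also lost without HFD-STZ vehicle replicate 3 (0.082). Over the 18 alternatives the call of Sik2 was lost in 4, of Crtc3 in 3 and of Ppara in 5. Among alternatives other than leaving out 1 library, the estimates were as weak as −0.24 (Sik2), −0.16 (Crtc3) and −0.07 (Ppara). The highest adjusted p there was 0.81, 0.88 and 0.94 in the same order. Of 11 insulin signalling genes 0 passed in any comparison with edgeR or limma-voom, while DESeq2 called 2 lower in the treatment comparison and 1 lower for HFD-STZ DHZ against NCD vehicle. Their medians were −0.26, 0.15 and −0.21, and 0, 3 and 3 had an unadjusted p below 0.05.

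Against NCD vehicle, where 13.7% of all genes were called, the other lists had the following calls in HFD-STZ DHZ. Of the substrate entry genes 2 rose, Slc16a1, a lactate and pyruvate carrier (1.55, adjusted p = 0.02), and Gpt2 (0.88, adjusted p = 0.021), and 0 fell. Of the one-way glycolytic genes 2 rose, Pklr, the pyruvate kinase of liver and kidney (1.13, adjusted p = 0.012), and Pdk1, which inhibits pyruvate dehydrogenase (0.88, adjusted p = 0.045), and 0 fell. Of the glutamine and ammonia enzymes 3 rose, Glud1, Asns (2.82, adjusted p = 0.014) and Gclc of glutathione synthesis (1.27, adjusted p = 0.021), and 0 fell. Of the transporters of glutamine and glutamate 0 passed with edgeR or DESeq2 and 1 with limma-voom, with 2 at an unadjusted p below 0.05. Of the acid-base genes Rhbg (−1.24, adjusted p = 0.029) and Slc4a2 (−0.74, adjusted p = 0.024) fell, and of the regulators Crtc3 (−0.82, adjusted p = 0.028) and Stk11, the kinase LKB1 (−0.76, adjusted p = 0.045). Asns was 2.1 without HFD-STZ DHZ replicate 2 and lost its call there (adjusted p = 0.073), without HFD-STZ DHZ replicate 1 (0.053) and without NCD vehicle replicate 1 (0.066). Over the 18 alternatives the call of Pdk1 was lost in 11, of Stk11 in 9, of Gpt2 and Rhbg in 8 each and of Slc4a2 in 7. Those of Slc16a1, Gclc and Crtc3 were lost in 6 each and those of Asns and Pklr in 4 each. Each of these genes lost its call in at least 1 alternative other than leaving out 1 library. The counts of calls per list also moved with single libraries. Without NCD vehicle replicate 1 they were 0, 0, 2, 0 and 0 (substrate entry, glycolytic, ammonia enzymes, acid-base, regulators) and without its replicate 2 they were 0, 1, 2, 0 and 0. Without its replicate 3 they were 1, 1, 2, 1 and 1. Without HFD-STZ DHZ replicate 1 they were 1, 0, 1, 0 and 0, without its replicate 2 they were 0, 0, 1, 0 and 0, and without its replicate 3 they were 0, 2, 3, 1 and 1. Without HFD-STZ vehicle replicate 1 they were 3, 1, 3, 2 and 2, without its replicate 2 they were 2, 3, 3, 5 and 5, and without its replicate 3 they were 2, 2, 3, 2 and 3.

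**Figure D4:**
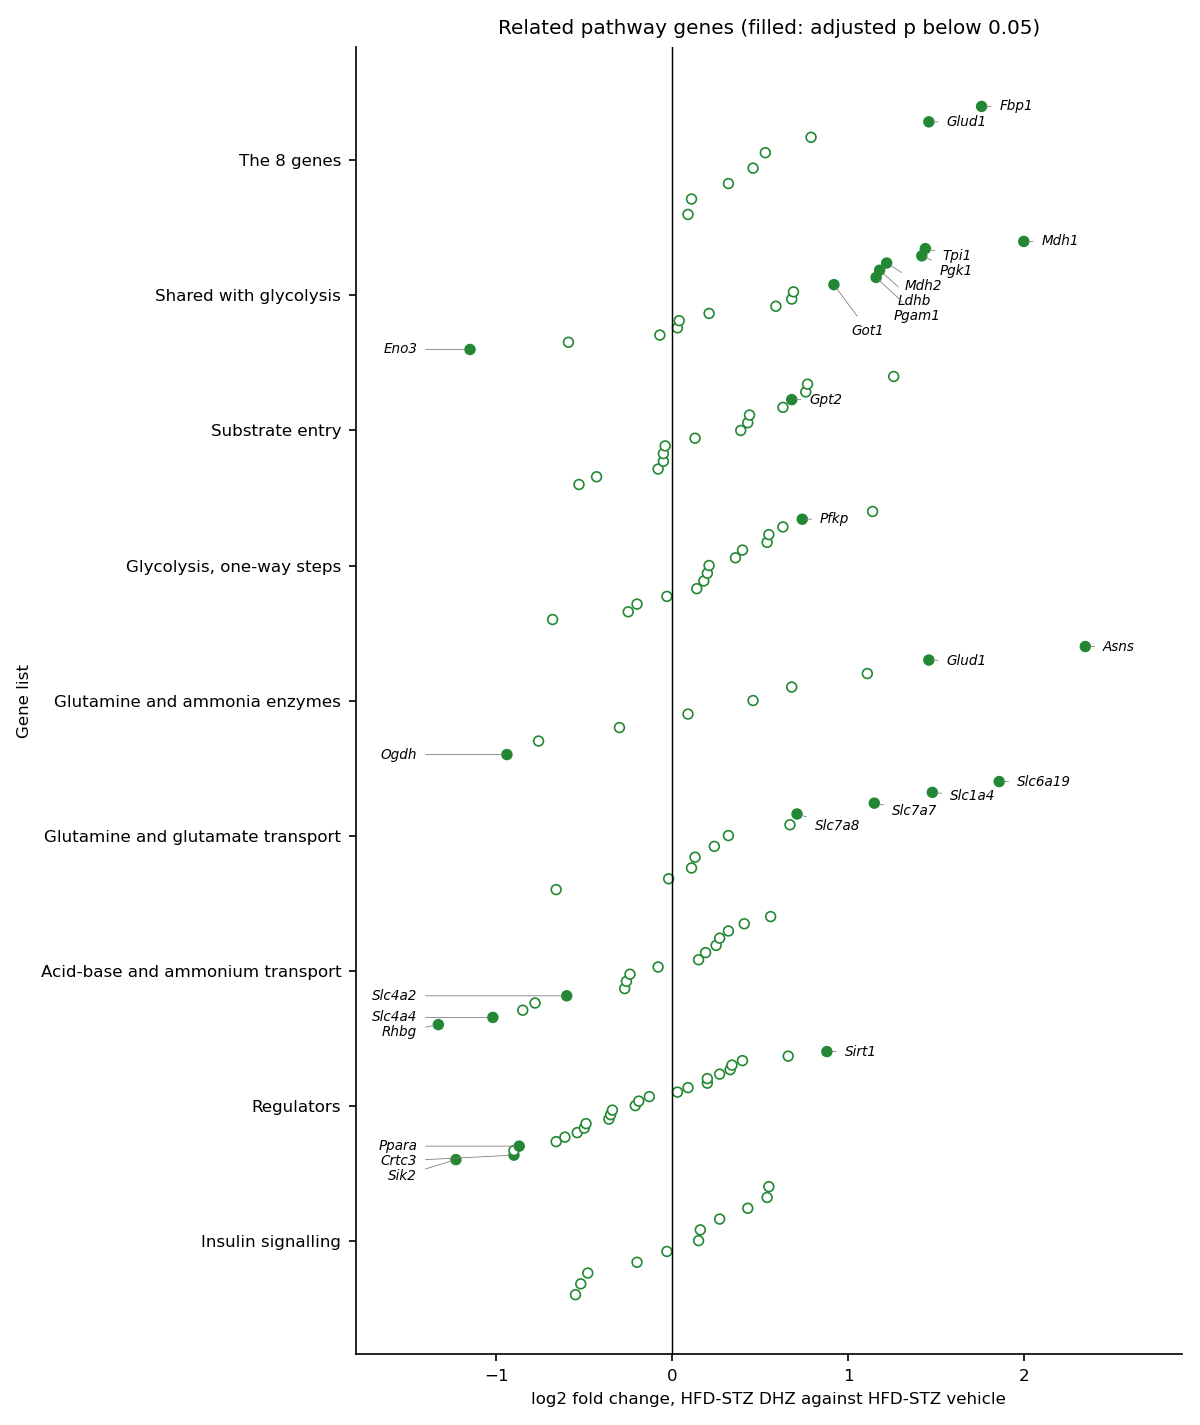
Log2 fold change of the 8 genes and of 8 lists of related genes between HFD-STZ DHZ and HFD-STZ vehicle (horizontal axis, 1 point per tested gene, spread vertically within a list), filled and named where the adjusted p was below 0.05. The enzymes shared with glycolysis had 7 filled points above 0 and 1 below, and the acid-base and ammonium transport genes 3 below 0 and 0 above, where 10% of all genes were called higher and 12% lower.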

How the data were processed

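Messenger RNA was captured from whole kidney and made into stranded libraries, per the labels' protocols. The authors deposited 1 table of whole-number, unnormalized counts for 55359 genes, and the submitters' processing notes name FastQC, Trim Galore, STAR and the build GRCm39 (mm39). Versions, counting program, strand and multiple-mapping settings: not given in the sources used here. Therefore reads of overlapping genes may not be separated. Pck2 has an antisense partner, Gm10876, with 0 counts over the 9 libraries. Titles gave the groups, as the treatment field has the same compound for each of the 9 libraries. Gene symbols, found by Ensembl identifier, were available for 94.1% of all genes and 99.5% of those tested. Promoter windows came from a RefSeq table of GRCm38.p6 and exon lengths from an annotation of the same older build. No gene coordinates are paired with the counts.

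The fit used edgeR 4.0.16 in R 4.3.3, with filterByExpr on the groups (17179 genes), TMM scaling and 1 robust quasi-likelihood fit of all 9 libraries with group as the only term (6 residual degrees of freedom, common dispersion 0.0893). Two-sided p-values were adjusted by Benjamini-Hochberg over the 17179 genes, which were called at an adjusted p below 0.05. The fit and calls were tested on simulated data. CPM use TMM-scaled library sizes, and log2 CPM a prior count of 2. SE were derived from the F statistic. The alternatives were library-size scaling, nuclear protein-coding genes only, DESeq2 1.42.0, limma-voom (limma 3.58.1), no filter and a stricter filter. The stricter filter kept genes with at least 10 counts in every library of at least 1 group. Others were only the 2 groups compared, the replicate number as a block and a Y-linked library term (libraries above 1 CPM of Y-linked genes). Each library was also left out in turn.

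The 8 genes and the 17 other lists were chosen with earlier results of these data known. All 8 are named, with up to 4 genes of lowest p from each other list and the 2 genes nearest in pattern to each (mean log2 CPM at least 1). Eno3 in the treatment comparison and Cyp2e1 were named outside this rule, after their values were seen. Acsm2, Slc7a13 and the untested Cps1, Tat and G6pc2 also lie outside it. The 3 comparisons share libraries in pairs. 1 further gene of the glutamine and ammonia list is not reported here.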

Additional observations from a re-analysis of the deposited data

How the results depend on the processing

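Under 18 alternatives the log2 fold changes of the 8 genes kept their direction and side of the threshold 402 times, gained a call 17 times, lost it once (Glud1, HFD-STZ DHZ against NCD vehicle, library-size scaling) and changed sign 12 times, always where the value had not passed. Fbp1 and Glud1 over HFD-STZ vehicle and Pck1 over NCD vehicle in HFD-STZ DHZ were called in 18 of 18.

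With library-size scaling, HFD-STZ vehicle against NCD vehicle gave −0.7 for G6pc, −0.64 for Glud1, −0.11 for Slc38a3, −0.07 for Slc16a1, −0.11 for Slc5a8 and −0.1 for G6pc3. The treatment then gave 0.65 for Fbp2, 0.02 for G6pc3, 0.12 for Hk1, 0.14 for Slc4a2, 0.16 for Atp6v1b1, 0.33 for Pik3ca, 0.34 for Pdpk1, 0.18 for Tsc1 and 0.09 for Aqp3. That scaling moved the median of all genes to −0.74, 0.81 and 0.04 in the 3 comparisons. Pck2 with treatment was −0.01 with nuclear protein-coding genes only. G6pc in HFD-STZ vehicle was −0.01 with limma-voom, −0.03 with no filter and −0.01 with the replicate block. Over the fits that each left out 1 library G6pc ranged from −0.07 to 0.15, and with treatment Pck1 from −0.18 to 0.4, Pck2 from −0.11 to 0.26 and Fbp2 from −0.24 to 0.06.

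Of the 8 genes, 0 were called in HFD-STZ vehicle against NCD vehicle, but 1 with nuclear protein-coding genes only, DESeq2, the stricter filter or the Y-linked term and 2 with no filter (0 to 1 leaving out 1 library). With treatment 2 were called (2 to 4 leaving out 1 library), and in HFD-STZ DHZ against NCD vehicle 2 (2 to 4), but 1 with library-size scaling, 4 with no filter and 5 with only the 2 groups compared.

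All genes called numbered 9 in HFD-STZ vehicle against NCD vehicle (2 to 28 leaving out 1 library), but 29 with library-size scaling, 126 with DESeq2, 2 with limma-voom, 425 with no filter, 3 when fitted on only the 2 groups and 42 with the Y-linked term. With treatment they numbered 3796 (1149 to 4086) and 888 with library-size scaling. For HFD-STZ DHZ against NCD vehicle they numbered 2352 (112 to 3706), but 36 with library-size scaling, 3981 when fitted on only the 2 groups and 3617 with the Y-linked term. The cause was not tested.

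The replicate numbers only name libraries: same-numbered libraries had correlations of −0.409 to 0.224 over 9 pairs, and 0 were closest to their own number in both other groups. With the replicate block 2, 2159 and 772 genes were called, and 0, 2 and 2 of the 8. The low nuclear protein-coding count of HFD-STZ vehicle replicate 2 (2.13 M) limits the precision of Pck2, Slc38a3, Fbp1, Slc37a4 and Pcx.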
